A study of Gallus gallus with 8 samples.

Results

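The stage change of gene expression in the mesenchyme of chicken dorsal skin was compared with the stage change in the epithelium above it. For each gene the change between H&H 31 and H&H 35 was taken in each layer on the log2(RPKM + 1) scale, and the change in epithelium was subtracted from the change in mesenchyme. RPKM is a read count scaled to the length of the gene and to the number of reads mapped in the library. A positive difference means a higher stage change in mesenchyme, and every difference below is on this scale, with its standard error (SE). The comparison covered the 11155 of 14642 genes in the table whose RPKM was 1 or more in 2 or more libraries, and all 8 libraries of the series entered it.

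Dorsal skin was taken from White Leghorn embryos at 2 Hamburger & Hamilton (H&H) stages, and epithelium and mesenchyme were separated before RNA-Seq. The groups were H&H 35 (E9, day 9) mesenchyme, H&H 31 (E7, day 7) mesenchyme, H&H 35 epithelium and H&H 31 epithelium, each with 2 libraries labelled batch I and batch II. No treatment is given for any group. The labels do not say how many embryos went into a library, and the skin was not divided into feather buds and the skin between them. Where 2 values of a group are given, batch I stands first and batch II second.

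Feathers begin as an exchange of signals between a sheet of epithelium and the mesenchyme below it. Placodes form in the epithelium over condensations of dermal cells, and each pair grows into a short bud that then elongates. Ligands made in one layer, among them WNT, FGF, BMP and SHH proteins, act on receptors in the other, and the extracellular matrix and the rate of cell division of each layer change as the bud grows out. A gene can therefore follow one course in the layer that sends a signal and another in the layer that receives it.

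The sum of the epithelial markers separated the layers, while the mesenchyme markers did so unequally. The summed RPKM of 9 epithelial markers was 29.7 to 32.1 in H&H 35 mesenchyme and 7.00 to 11.8 in H&H 31 mesenchyme, against 2017 to 2244 in H&H 35 epithelium and 651 to 872 in H&H 31 epithelium. Within a stage and batch the mesenchyme library thus held 1.43 and 1.47 percent of the epithelial sum at H&H 35, and 1.08 and 1.36 percent at H&H 31. The 8 mesenchyme markers summed to 3804 to 4254 RPKM in H&H 35 mesenchyme, against 715 to 757 in H&H 35 epithelium. At H&H 31 the sums were 4174 to 4327 in mesenchyme, against 871 to 989 in epithelium. Of these markers CDERMO-1 (TWIST2), PRRX1 and PDGFRA, which mark dermal fibroblasts, lay in epithelium at 0.0757 to 0.992 percent of their level in mesenchyme. COL1A2, DCN and LUM, also among the 8 mesenchyme markers, separated the layers less or not at all, and the other members of that list are not given here. COL1A2 lay in epithelium at 39.2 to 49.6 percent and DCN at 68.2 to 116 percent of the level in mesenchyme. LUM lay at 0.977 and 1.03 percent at H&H 35, against 4.92 to 10.3 percent at H&H 31. FRZB and SFRP2, genes outside that list, were called higher in mesenchyme at H&H 35 and higher in epithelium at H&H 31. FRZB stood in epithelium at 31.5 and 45.2 percent of the level in mesenchyme at H&H 35, against 621 and 561 percent at H&H 31, and SFRP2 at 7.85 and 14.6 percent, against 154 and 135 percent. The number of alignments was 22050712 to 33620383 per library, and reads per gene were not used here, so the precision of a value is the spread between 2 libraries. As 2 libraries a group give a rough estimate of the spread of a single gene, the spread was shared across genes with limma. A gene was called at an adjusted p (Benjamini-Hochberg) under 0.05 over all genes tested.

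Other cell types in the layers also differed between stages. In mesenchyme the summed RPKM of 13 endothelial markers was 283 to 327 at H&H 35, against 133 to 139 at H&H 31, and that of 7 smooth muscle and pericyte markers was 104 to 126, against 29.7 to 31.1. Both lists lay between 1.47 and 10.6 in epithelium. The 4 red cell genes summed to 39.6 to 42.1 in H&H 35 mesenchyme, against 244 to 333 in H&H 31 mesenchyme, and to at most 9.17 in epithelium. The 9 melanocyte markers summed to 435 to 499 in H&H 35 epithelium, against 305 to 393 in H&H 31 epithelium, and the 10 markers of neurons and Schwann cells to 127 to 130, against 238 to 263. Striated muscle genes stood apart in batch I of H&H 35 mesenchyme, at 72.8 against 9.01 in batch II, as did leukocyte markers, at 107 against 56.3. A higher stage change in mesenchyme was called for 9 of 13 endothelial (4 with a pseudocount of 0.1), 6 of 7 smooth muscle, 4 of 8 mesenchyme, 2 of 9 epithelial, 2 of 9 leukocyte, 2 of 7 neuronal, 2 of 4 cartilage and 1 of 5 striated muscle genes tested (5 of 5 without batch II of H&H 35 mesenchyme). A lower one was called for 6 of 9 melanocyte, 3 of 9 epithelial, 2 of 4 red cell, 2 of 4 cartilage, 1 of 8 mesenchyme and 1 of 7 neuronal genes. Of all genes tested 19.4 percent had a higher and 23 percent a lower stage change in mesenchyme. The share with a higher change lay near this for epithelial and leukocyte genes (22.2 percent each) and striated muscle genes (20 percent). The part of these cell types in the results below was not tested, except where a value is given.

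The layers followed different courses in a large share of the genes. The difference of the stage changes was called for 4730 genes (42.4 percent of those tested), of which 2166 (19.4 percent) had the higher change in mesenchyme and 2564 (23 percent) the lower. In mesenchyme 2031 genes rose (18.2 percent) and 2404 fell (21.6 percent), while in epithelium 2070 rose (18.6 percent) and 1772 fell (15.9 percent). Of the 4730 genes, 1005 changed in opposite directions in the 2 layers, 3194 changed in 1 layer and were not called in the other, 259 changed in the same direction by unequal amounts, and 272 were called in neither layer alone. Across the 11155 genes the 2 stage changes had a Pearson r of 0.036, which describes genes and not independent samples. In whole tissue, fewer cells of a type and less RNA per cell cannot be told apart, here or in any result that follows.

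**Figure D1:**
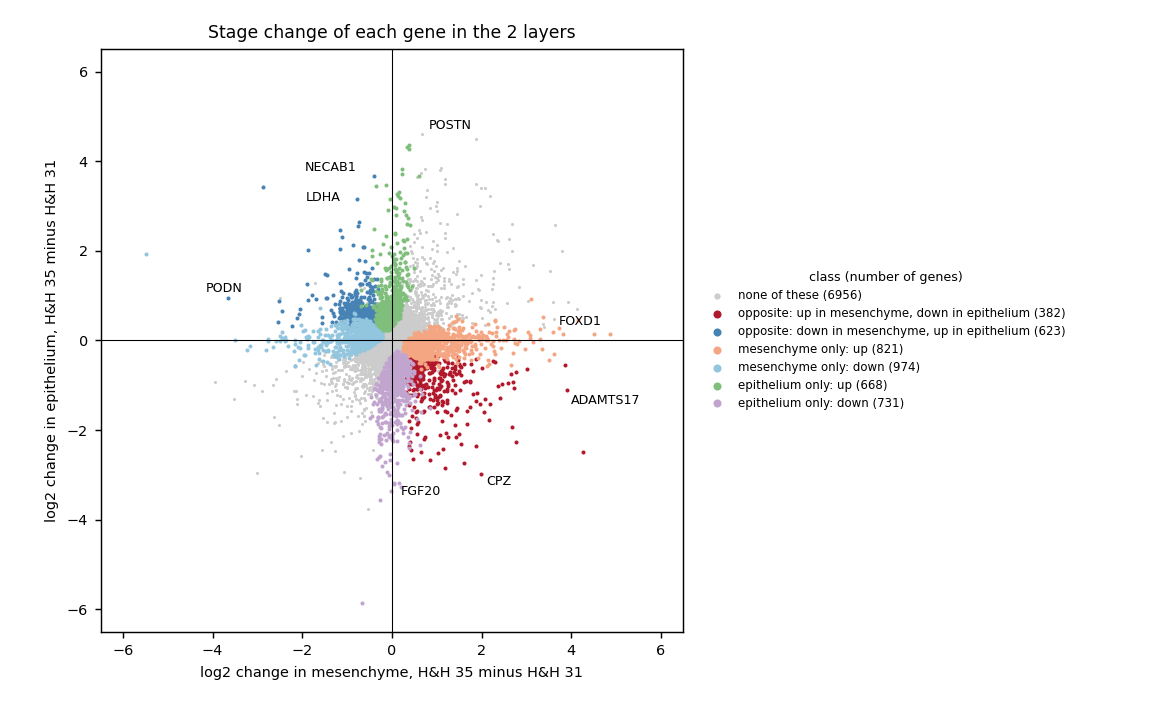
Stage change of each of the 11155 genes in mesenchyme (x axis) and in epithelium (y axis), both as H&H 35 minus H&H 31 on the log2(RPKM + 1) scale, coloured by class with the number of genes in brackets. The 382 and 623 opposite genes fill the lower right and upper left of the plot, and the one-layer genes lie along the axes.

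Genes that rose in mesenchyme and fell in epithelium numbered 382 (3.42 percent of the genes tested). Their median log2 change was 0.69 in mesenchyme and -0.74 in epithelium. The level was called higher in mesenchyme at H&H 35 for 257 of them and higher in epithelium at H&H 31 for 239. Both conditions were met by 114. Of all genes tested 3243 were called higher in mesenchyme at H&H 35, 3092 higher in epithelium at H&H 31, and 212 both. These tissue comparisons use the same libraries as the stage changes and add no independent support. The mean RPKM was at least 2 in both layers for 263 of the 382. The genes described next were chosen by the size of the difference among those 263, where the libraries of the 2 stages did not overlap in either layer.

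NDNF, a secreted factor first described for neurons, had 53.0 and 53.9 RPKM in H&H 35 mesenchyme, against 6.66 and 8.32 in H&H 31 mesenchyme. Its epithelial values were 0.966 and 1.27 RPKM at H&H 35, against 7.89 and 6.24 at H&H 31, and the difference of its stage changes was 4.61 (SE 0.20, adjusted p = 3.34e-06). The level of NDNF in mesenchyme lay far above that in epithelium at H&H 35, and the layers had no called difference at H&H 31 (adjusted p = 0.676).

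F10, which codes for coagulation factor X, had 18.9 and 11.6 RPKM in H&H 35 mesenchyme, against 1.38 and 1.23 in H&H 31 mesenchyme. The epithelial libraries held 0.916 and 0.947 RPKM at H&H 35, against 9.34 and 7.28 at H&H 31 (difference 5.04, SE 0.29, adjusted p = 8.6e-06). CPZ, a carboxypeptidase with a domain that binds WNT proteins, had 7.17 and 5.21 RPKM in H&H 35 mesenchyme, against 0.976 and 0.621 in H&H 31 mesenchyme. It had 0.590 and 0.786 RPKM in H&H 35 epithelium, against 13.3 and 11.2 in H&H 31 epithelium (difference 4.96, SE 0.24, adjusted p = 5.71e-06). CPZ was thus higher in mesenchyme at H&H 35 and higher in epithelium at H&H 31. ADAMTS17, a secreted metalloprotease, had 25.8 and 34.7 RPKM in H&H 35 mesenchyme, against 0.944 and 1.22 in H&H 31 mesenchyme. In epithelium, where it started high, it had 27.1 and 37.5 RPKM at H&H 35, against 73.1 and 67.0 at H&H 31 (difference 5.004, SE 0.24, adjusted p = 5.72e-06).

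Some of these genes belong to basement membranes, microfibrils and hyaluronan networks. NID1, a nidogen that links laminin to collagen IV, had 163 and 140.4 RPKM in H&H 35 mesenchyme, against 49.3 and 56.6 in H&H 31 mesenchyme. It had 40.6 and 57.0 RPKM in H&H 35 epithelium, against 211 and 206 in H&H 31 epithelium (difference 3.59, SE 0.21, adjusted p = 9.6e-06). COL18A1, a collagen of basement membranes, had 94.6 and 81.2 RPKM in H&H 35 mesenchyme, against 12.6 and 12.6 in H&H 31 mesenchyme. Its values in epithelium were 33.4 and 37.1 RPKM at H&H 35, against 67.4 and 67.4 at H&H 31 (difference 3.62, SE 0.13, adjusted p = 2.45e-06). Both genes were higher in mesenchyme at H&H 35 and higher in epithelium at H&H 31. THSD4, which acts on fibrillin microfibrils, had 6.07 and 9.04 RPKM in H&H 35 mesenchyme, against 1.73 and 2.06 in H&H 31 mesenchyme. Epithelium showed 1.56 and 1.93 RPKM at H&H 35, against 13.9 and 11.3 at H&H 31 (difference 3.85, SE 0.26, adjusted p = 1.59e-05). HAPLN1, which links hyaluronan to proteoglycans and is also a cartilage marker, had 24.0 and 13.96 RPKM in H&H 35 mesenchyme, against 3.88 and 3.49 in H&H 31 mesenchyme. It had 0.920 and 1.39 RPKM in H&H 35 epithelium, against 6.02 and 4.94 in H&H 31 epithelium (difference 3.64, SE 0.32, adjusted p = 5.23e-05).

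Others code for secreted antagonists and a guidance ligand. FST (follistatin), which binds activin and BMP ligands, had 18.7 and 19.7 RPKM in H&H 35 mesenchyme, against 3.07 and 4.00 in H&H 31 mesenchyme. In the epithelial layer it had 8.39 and 10.2 RPKM at H&H 35, against 30.3 and 38.4 at H&H 31 (difference 3.94, SE 0.21, adjusted p = 6.41e-06). SFRP2, a secreted WNT antagonist, had 143 and 116 RPKM in H&H 35 mesenchyme, against 15.1 and 15.2 in H&H 31 mesenchyme. Its epithelial values were 11.2 and 16.97 RPKM at H&H 35, against 23.3 and 20.5 at H&H 31 (difference 3.63, SE 0.24, adjusted p = 1.59e-05), and this smaller fall was lost without batch I of H&H 31 epithelium (adjusted p = 0.117) or batch I of H&H 35 epithelium (0.104). With no filter or the variance of each gene alone the epithelial fall of SFRP2 was lost too. SEMA3D, a secreted semaphorin, had 15.03 and 15.2 RPKM in H&H 35 mesenchyme, against 2.83 and 3.97 in H&H 31 mesenchyme. It had 14.6 and 24.1 RPKM in H&H 35 epithelium, against 94.9 and 107 in H&H 31 epithelium (difference 4.25, SE 0.29, adjusted p = 1.71e-05), and the layers had no called difference at H&H 35 (adjusted p = 0.223).

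The reverse course, a fall in mesenchyme and a rise in epithelium, was called for 623 genes (5.58 percent). Which course held more genes depended on the scaling of the libraries. With equal sums 423 genes fell in mesenchyme and rose in epithelium, against 499 of the first course, while the counts were 508 and 483 with median-ratio scaling and 543 and 391 with quantile normalization. The median log2 change was -0.58 in mesenchyme and 0.52 in epithelium, and the mean RPKM was at least 2 in both layers for 567. Of all genes tested 4144 were called higher in epithelium at H&H 35, 3309 higher in mesenchyme at H&H 31, and 377 both. Among the 623 genes of the reverse course these counts were 519, 344 and 240. The 12 genes with the largest differences included enzymes and proteins of the cell surface and matrix.

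PODN (podocan), a leucine-rich matrix protein, had 7.91 and 11.2 RPKM in H&H 35 mesenchyme, against 137 and 123 in H&H 31 mesenchyme. The epithelial libraries had 4.79 and 4.70 RPKM at H&H 35, against 1.80 and 2.19 at H&H 31, a difference of -4.60 (SE 0.21, adjusted p = 3.82e-06). LDHA, the lactate dehydrogenase subunit that favours lactate production, had 84.1 and 83.0 RPKM in H&H 35 mesenchyme, against 154 and 133 in H&H 31 mesenchyme. Epithelial libraries held 80.6 and 113 RPKM at H&H 35, against 10.5 and 9.15 at H&H 31 (difference -3.93, SE 0.21, adjusted p = 6.41e-06). The epithelial level of LDHA was far below that of mesenchyme at H&H 31, with no called difference at H&H 35 (adjusted p = 0.277). The fall of LDHA in mesenchyme was lost with the variance of each gene alone (adjusted p = 0.05745). NPNT (nephronectin), a basement membrane ligand of an integrin, had 32.6 and 34.7 RPKM in H&H 35 mesenchyme, against 122 and 129.6 in H&H 31 mesenchyme. It had 47.1 and 50.4 RPKM in H&H 35 epithelium, against 24.9 and 26.1 in H&H 31 epithelium (difference -2.78, SE 0.11, adjusted p = 3.08e-06). HMGA2, a chromatin protein of embryonic cells, had 15.1 and 10.5 RPKM in H&H 35 mesenchyme, against 49.1 and 49.4 in H&H 31 mesenchyme. The epithelial values were 8.98 and 19.4 RPKM at H&H 35, against 6.07 and 4.08 at H&H 31 (difference -3.14, SE 0.43, adjusted p = 0.000568), with batches wide apart at H&H 35, and the epithelial call was lost without batch II of H&H 31 epithelium (adjusted p = 0.086).

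CPA6, a secreted carboxypeptidase, had 3.05 and 7.46 RPKM in H&H 35 mesenchyme, against 19.5 and 21.4 in H&H 31 mesenchyme. In the other layer it had 15.5 and 16.4 RPKM in H&H 35 epithelium, against 3.49 and 2.91 in H&H 31 epithelium (difference -3.89, SE 0.39, adjusted p = 0.000101). CORIN, a membrane protease, had 1.61 and 2.10 RPKM in H&H 35 mesenchyme, against 3.82 and 4.68 in H&H 31 mesenchyme. It had 7.74 and 7.68 RPKM in H&H 35 epithelium, against 1.16 and 0.845 in H&H 31 epithelium (difference -3.00, SE 0.20, adjusted p = 1.64e-05). HS3ST6, which adds sulfate to heparan sulfate chains, had 19.4 and 18.3 RPKM in H&H 35 mesenchyme, against 38.0 and 47.0 in H&H 31 mesenchyme. Its level in epithelium was 6.17 and 7.73 RPKM at H&H 35, against 0.744 and 0.466 at H&H 31 (difference -3.43, SE 0.21, adjusted p = 1e-05). Of these enzymes CPA6 and CORIN were higher in epithelium at H&H 35, while HS3ST6 stayed higher in mesenchyme at both stages.

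SHROOM1, a protein of the actin cytoskeleton, had 5.64 and 5.66 RPKM in H&H 35 mesenchyme, against 14.7 and 13.2 in H&H 31 mesenchyme. It had 5.64 and 5.28 RPKM in H&H 35 epithelium, against 0.197 and 0.148 in H&H 31 epithelium (difference -3.63, SE 0.15, adjusted p = 3.34e-06). FAM110A, a centrosomal protein, had 2.13 and 1.69 RPKM in H&H 35 mesenchyme, against 3.43 and 3.47 in H&H 31 mesenchyme. In the epithelial libraries it had 18.0 and 15.3 RPKM at H&H 35, against 3.38 and 2.94 at H&H 31 (difference -2.70, SE 0.18, adjusted p = 1.65e-05). That the stages did not overlap in either layer was a condition for naming both genes. NECAB1, a calcium-binding protein, had 4.02 and 3.87 RPKM in H&H 35 mesenchyme, against 5.81 and 5.24 in H&H 31 mesenchyme. Its epithelial levels were 11.95 and 14.2 RPKM at H&H 35, against 0.107 and 0.0874 at H&H 31 (difference -4.07, SE 0.17, adjusted p = 3.23e-06). DRAXIN, a secreted guidance protein that also inhibits WNT signaling, had 4.40 and 3.83 RPKM in H&H 35 mesenchyme, against 8.93 and 6.21 in H&H 31 mesenchyme. In the epithelial layer it had 11.04 and 13.4 RPKM at H&H 35, against 1.44 and 0.808 at H&H 31 (difference -3.38, SE 0.27, adjusted p = 3.52e-05). PDZRN4, a PDZ and RING finger protein, had 4.13 and 7.38 RPKM in H&H 35 mesenchyme, against 9.35 and 10.7 in H&H 31 mesenchyme. The epithelial libraries had 6.14 and 5.18 RPKM at H&H 35, against 0.134 and 0.136 at H&H 31 (difference -3.30, SE 0.29, adjusted p = 5.91e-05). The falls of these 3 genes in mesenchyme were small beside their rises in epithelium. With the variance of each gene alone the falls of DRAXIN and PDZRN4 were lost, and with no filter that of PDZRN4. The fall of NECAB1 was lost with a pseudocount of 0.1 or with equal sums. That of NECAB1 was lost without batch I of H&H 31 mesenchyme (adjusted p = 0.156), batch II of H&H 31 mesenchyme (0.069), batch I of H&H 35 mesenchyme (0.0618) or batch II of H&H 35 mesenchyme (0.0838). That of DRAXIN was lost without batch I of H&H 31 mesenchyme (adjusted p = 0.131) or batch II of H&H 35 mesenchyme (0.074), and that of PDZRN4 without batch I of H&H 31 mesenchyme (adjusted p = 0.0609), batch II of H&H 31 mesenchyme (0.122) or batch I of H&H 35 mesenchyme (0.0789).

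**Figure D2:**
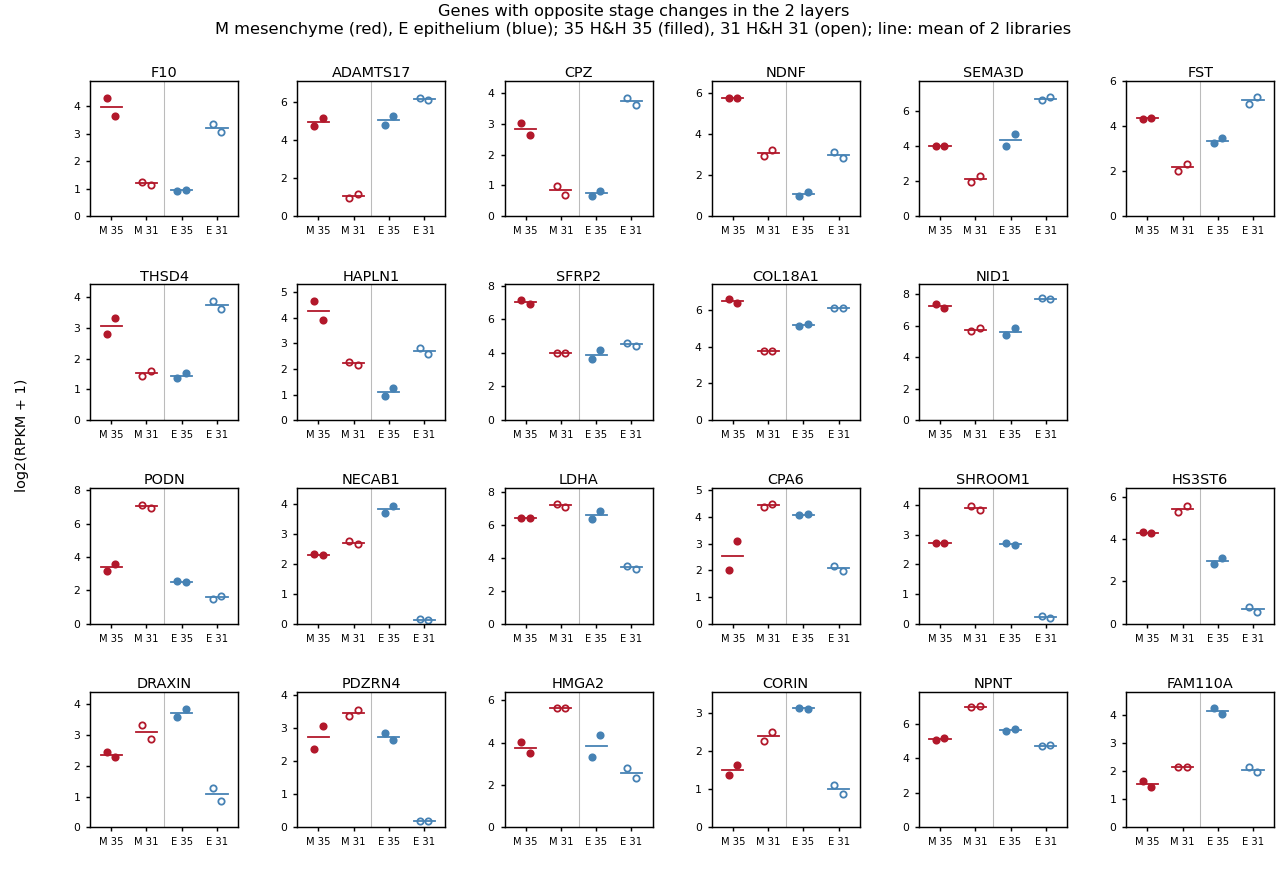
Level of the 23 genes described above as log2(RPKM + 1) in each library, with mesenchyme in red, epithelium in blue, H&H 35 filled and H&H 31 open, and a line at the mean of 2 libraries. In the upper 11 panels H&H 35 lies above H&H 31 in mesenchyme and below it in epithelium, and in the lower 12 the order is turned round.

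The group of genes with the most uniform course was that of DNA replication and mitosis. All 39 tested members fell in mesenchyme, with a median log2 change of -0.89, and 35 rose in epithelium, where the median was 0.70. Of the 39, 38 had a lower stage change in mesenchyme (against 23 percent of all genes tested) and 35 were opposite (against 5.58 percent), with 0 higher at an adjusted p under 0.05 in limma or at an unadjusted p under 0.05, and with a median difference of -1.57, where that of all genes was -0.05. CCNE2 (cyclin E2), which drives entry into S phase, had 4.14 and 4.56 RPKM in H&H 35 mesenchyme, against 8.60 and 10.2 in H&H 31 mesenchyme. It had 13.2 and 12.4 RPKM in H&H 35 epithelium, against 5.63 and 5.86 in H&H 31 epithelium (difference -1.99, SE 0.16, adjusted p = 3.16e-05). RRM2, a subunit of the reductase that makes deoxyribonucleotides, had 56.8 and 71.0 RPKM in H&H 35 mesenchyme, against 116 and 126 in H&H 31 mesenchyme. In the epithelial libraries it had 224 and 180.2 RPKM at H&H 35, against 98.5 and 99.001 at H&H 31 (difference -1.94, SE 0.18, adjusted p = 7.06e-05). BUB1, a kinase of the spindle checkpoint, had 10.8 and 14.3 RPKM in H&H 35 mesenchyme, against 24.6 and 26.6 in H&H 31 mesenchyme. Epithelial values were 28.6 and 26.2 RPKM at H&H 35, against 15.1 and 13.1 at H&H 31 (difference -1.90, SE 0.19, adjusted p = 9.06e-05). Each of these 3 genes was called lower in mesenchyme than in epithelium at H&H 35. At H&H 31 CCNE2 and BUB1 were called higher in mesenchyme, while the layers differed by 0.29 for RRM2 (adjusted p = 0.0821).

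Other members were singled out after their values were seen. MKI67, the proliferation antigen Ki-67, had 19.7 and 27.7 RPKM in H&H 35 mesenchyme, against 34.4 and 35.4 in H&H 31 mesenchyme, and 48.6 and 52.9 RPKM in H&H 35 epithelium, against 24.7 and 21.9 in H&H 31 epithelium (difference -1.65, SE 0.20, adjusted p = 0.000269). PCNA, the clamp of the replication fork, had 131 and 127 RPKM in H&H 35 mesenchyme, against 231 and 233 in H&H 31 mesenchyme. The levels in epithelium were 332 and 294 RPKM at H&H 35, against 208 and 202 at H&H 31 (difference -1.44, SE 0.11, adjusted p = 2.99e-05). The 4 members that were not called in epithelium were GINS2 (0.38), CENPF (0.07), GINS3 (0.10) and POLE2 (-0.06), and only POLE2 had no called difference between the layers (-0.18; adjusted p = 0.233). Over the 18 alternatives run, the members with a lower stage change in mesenchyme numbered 36 to 38 and the opposite members 28 to 36. The list mixes genes of S phase with genes of mitosis, and neither the share of dividing cells nor the length of the cycle was measured.

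**Figure D3:**
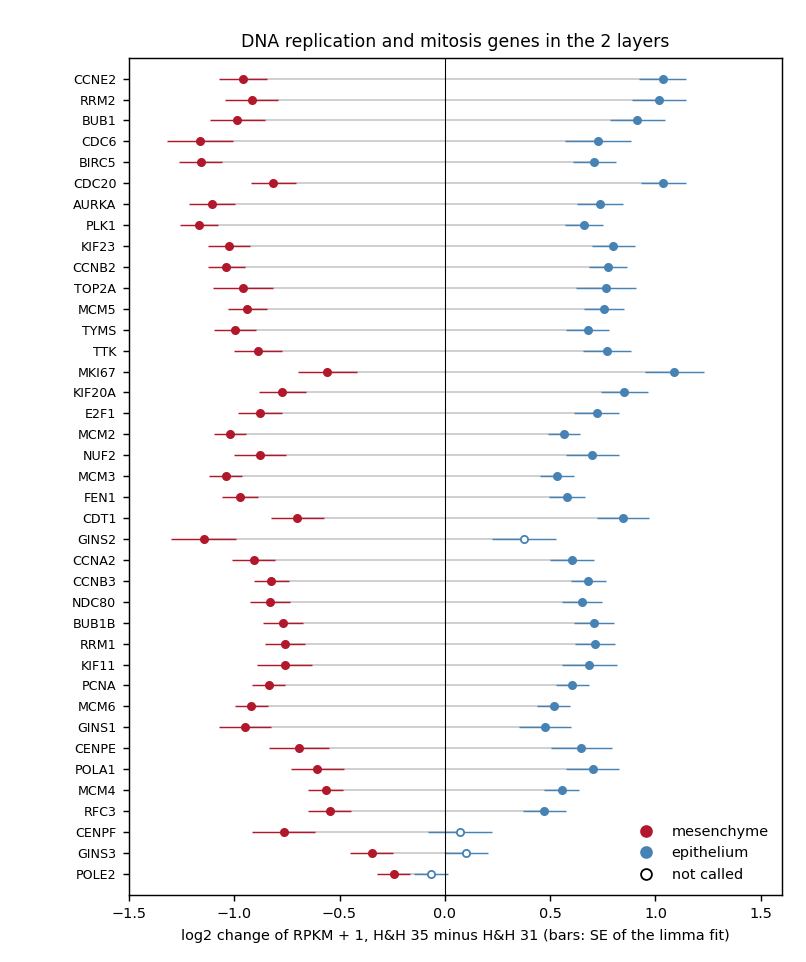
Log2 change between H&H 31 and H&H 35 of 39 DNA replication and mitosis genes in mesenchyme (red) and epithelium (blue), with bars for the SE of the limma fit and open points for genes that were not called in that layer. All red points lie below 0, and all blue points but that of POLE2 lie above it.

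Genes of energy and lipid metabolism also moved apart. Of 44 respiratory chain and ATP synthase genes, 26 (59.1 percent, against 23 percent of all genes) had a lower and 0 (against 19.4 percent) a higher stage change in mesenchyme in limma (30 and 0 at an unadjusted p under 0.05), with median changes of -0.30 in mesenchyme and 0.21 in epithelium. ATP5G1, which codes for the membrane ring of ATP synthase, had 90.6 and 82.2 RPKM in H&H 35 mesenchyme, against 148 and 120.2 in H&H 31 mesenchyme. It had 252 and 208 RPKM in H&H 35 epithelium, against 154 and 148 in H&H 31 epithelium (difference -1.22, SE 0.17, adjusted p = 0.000686). With the variance of each gene alone its calls in mesenchyme (adjusted p = 0.0535) and in epithelium (0.065) were lost. ATP5C1, the central stalk of the enzyme, had 162 and 155 RPKM in H&H 35 mesenchyme, against 173 and 162 in H&H 31 mesenchyme. Epithelial libraries showed 329 and 268 RPKM at H&H 35, against 174 and 162 at H&H 31 (difference -0.89, SE 0.15, adjusted p = 0.00139), so it rose in epithelium alone. NDUFB6, a subunit of complex I, had 43.8 and 35.2 RPKM in H&H 35 mesenchyme, against 59.3 and 65.4 in H&H 31 mesenchyme. Epithelium had 76.4 and 54.9 RPKM at H&H 35, against 49.7 and 56.9 at H&H 31 (difference -0.93, SE 0.23, adjusted p = 0.00997). Of the 44 genes 13.6 percent fell in mesenchyme and rose in epithelium, against 5.58 percent of all genes. Of the members 6 were opposite, and 18 with a batch term within each stage, 16 without batch II of H&H 35 epithelium, and 3 without either library of H&H 31 epithelium or batch II of either mesenchyme group, and 2 with the variance of each gene alone. The count of 26 was 17 without batch II of H&H 31 mesenchyme or batch I of H&H 35 epithelium, 15 with quantile normalization and 11 with the variance of each gene alone.

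Of 18 glycolysis genes 9 (50 percent, against 23 percent of all genes) had a lower and 0 (against 19.4 percent) a higher stage change in mesenchyme in limma (9 and 1 at an unadjusted p under 0.05). Of the 18, 6 were opposite, with a fall in mesenchyme (33.3 percent, against 5.58 percent of all genes). The medians were -0.34 in mesenchyme and 0.30 in epithelium. LDHB, the lactate dehydrogenase subunit of oxidative tissues, had 257 and 223 RPKM in H&H 35 mesenchyme, against 1100.2 and 1139 in H&H 31 mesenchyme. Its levels in epithelium were 398 and 333 RPKM at H&H 35, against 286 and 295 at H&H 31 (difference -2.54, SE 0.15, adjusted p = 1e-05), and its small epithelial rise was lost in 9 of 18 alternatives (adjusted p up to 0.255), among them without any H&H 31 library or batch I of H&H 35 epithelium. PFKP, a phosphofructokinase, had 22.8 and 22.5 RPKM in H&H 35 mesenchyme, against 63.4 and 57.2 in H&H 31 mesenchyme, and 37.0 and 35.1 RPKM in H&H 35 epithelium, against 35.6 and 37.1 in H&H 31 epithelium, a fall in mesenchyme alone (difference -1.36, SE 0.11, adjusted p = 3.78e-05). The opposite glycolysis genes were 2 or 3 without any H&H 31 library or batch I of H&H 35 epithelium, and 2 or 3 with each other scaling of the libraries, under which 1 or 2 members had a higher change. They were 3 with no filter and 0 with the variance of each gene alone. Of 19 cholesterol genes 11 (57.9 percent, against 23 percent of all genes) had a lower and 0 (against 19.4 percent) a higher stage change in mesenchyme in limma (14 and 0 at an unadjusted p under 0.05), with medians of -0.51 in mesenchyme and 0.22 in epithelium. FDFT1 (squalene synthase) had 6.96 and 5.21 RPKM in H&H 35 mesenchyme, against 13.7 and 12.99 in H&H 31 mesenchyme. Epithelium held 26.5 and 18.5 RPKM at H&H 35, against 17.7 and 16.3 at H&H 31 (difference -1.39, SE 0.24, adjusted p = 0.00189), where its change in epithelium was called only with a batch term within each stage (adjusted p = 0.00897). SQLE (squalene epoxidase) had 6.39 and 5.98 RPKM in H&H 35 mesenchyme, against 9.25 and 9.90 in H&H 31 mesenchyme. Its epithelial levels were 18.2 and 12.8 RPKM at H&H 35, against 9.14 and 8.76 at H&H 31 (difference -1.27, SE 0.21, adjusted p = 0.00137). NSDHL, a later enzyme of the pathway, had 5.72 and 4.70 RPKM in H&H 35 mesenchyme, against 8.87 and 10.1 in H&H 31 mesenchyme. In the epithelial layer it had 13.6 and 9.34 RPKM at H&H 35, against 6.77 and 7.23 at H&H 31 (difference -1.38, SE 0.24, adjusted p = 0.00178). With the variance of each gene alone the 11 were 6. Of the 19 genes 3 were opposite, with a fall in mesenchyme (15.8 percent, against 5.58 percent of all genes), and 0 with the variance of each gene alone. With the batch term within each stage or without batch II of H&H 35 epithelium they were 6. They were 0 or 1 without either H&H 31 epithelium library, batch II of either mesenchyme group or batch I of H&H 35 epithelium. The mesenchymal fall of SQLE was lost without batch I of H&H 31 mesenchyme (adjusted p = 0.0575), batch II of H&H 31 mesenchyme (0.0933) or batch II of H&H 35 mesenchyme (0.0635). That of NSDHL was lost without batch II of H&H 31 mesenchyme (adjusted p = 0.0598), and its rise in epithelium without batch I of H&H 31 epithelium (adjusted p = 0.0964), batch II of H&H 31 epithelium (0.0627) or batch I of H&H 35 epithelium (0.12).

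Ribosomal protein genes, another group of growing cells, had few called differences between the layers. Of 59 members 17 rose in mesenchyme, against 18.2 percent of all genes, and 16 in epithelium, against 18.6 percent, with medians of 0.25 and 0.24. These counts moved with the libraries left out. They moved also without a library of the other layer, where the median of the layer itself stayed at 0.25 (mesenchyme) or 0.24 (epithelium). Those that rose in mesenchyme were 3 without batch II of H&H 31 mesenchyme or batch I of H&H 35 mesenchyme, 7 without batch I of H&H 31 mesenchyme, 9 without either H&H 31 epithelium library and 32 without batch II of H&H 35 mesenchyme. Those that rose in epithelium were 2 or 3 without either H&H 31 epithelium library or batch I of H&H 35 epithelium, and 6 or 7 without either H&H 31 mesenchyme library or batch II of H&H 35 epithelium. With equal sums they were 37 in mesenchyme and 9 in epithelium, and with a batch term within each stage 37 and 32. The difference between the layers was called for 1 member. That gene, RPSA, had 1884 and 1608 RPKM in H&H 35 mesenchyme, against 1744 and 1918 in H&H 31 mesenchyme, and 2103 and 1877 RPKM in H&H 35 epithelium, against 1419 and 1518 in H&H 31 epithelium (difference -0.51, SE 0.17, adjusted p = 0.0423), and its call was lost with the batch term (adjusted p = 0.0568) and in 10 other alternatives. With equal sums 5 members, and with quantile normalization 7, had a higher change in mesenchyme. Of 14 immediate early genes 1 had a higher and 4 a lower stage change in mesenchyme (7.14 and 28.6 percent, against 19.4 and 23 percent of all genes). Those with the largest differences were FOS (difference -1.64, SE 0.51, adjusted p = 0.0287), CYR61 (difference -1.5002, SE 0.38, adjusted p = 0.0125) and IER5 (difference -1.46, SE 0.36, adjusted p = 0.0105), and the 4 were 0 with the variance of each gene alone, and 2 with no filter or without either H&H 35 epithelium library, batch I of H&H 31 epithelium or batch II of H&H 35 mesenchyme. FOS, a factor induced by growth signals and by handling of tissue, had 1.04 and 0.518 RPKM in H&H 35 mesenchyme, against 2.52 and 1.30 in H&H 31 mesenchyme. In epithelium the levels were 4.27 and 4.50 RPKM at H&H 35, against 0.823 and 3.25 at H&H 31, with the H&H 31 epithelium libraries far apart. The difference of FOS was lost in 7 of 18 alternatives (adjusted p up to 0.161), among them without batch I of H&H 31 epithelium (0.056), H&H 31 mesenchyme (0.112) or H&H 35 epithelium (0.07), or batch II of H&H 35 epithelium (0.0686) or H&H 35 mesenchyme (0.0813). Those of CYR61 and IER5 were lost with the variance of each gene alone (adjusted p = 0.106 and 0.104).

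**Figure D4:**
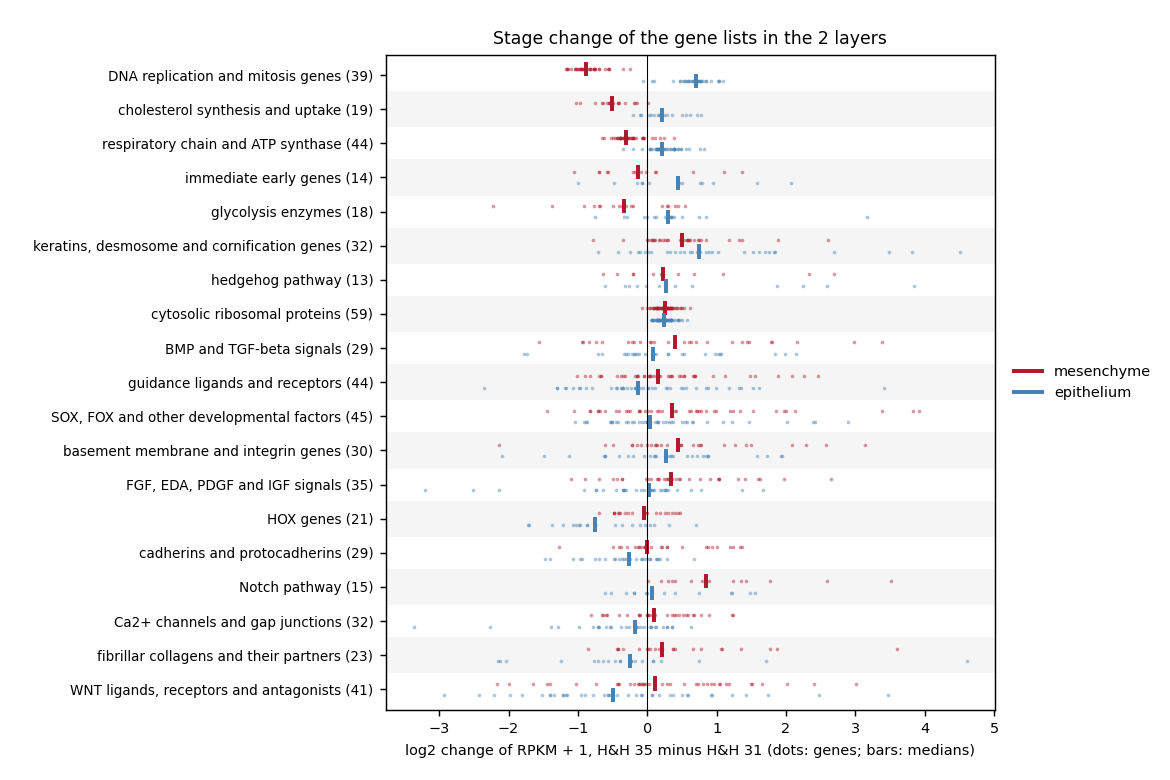
Log2 change between H&H 31 and H&H 35 of the members of 19 gene lists in mesenchyme (red) and epithelium (blue), with a dot for each gene, a bar at the median and the number of genes tested in brackets. The medians lie farthest apart, on opposite sides of 0, for DNA replication and mitosis genes (-0.89 and 0.70), and lie together for ribosomal proteins (0.25 and 0.24).

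Signals that pass between the layers were found among the genes of both courses. Of 41 WNT ligands, receptors and antagonists 22 had a higher and 9 a lower stage change in mesenchyme, against 19.4 and 23 percent of all genes, and the medians were 0.11 in mesenchyme and -0.50 in epithelium. FRZB, a secreted WNT antagonist, had 12.1 and 11.4 RPKM in H&H 35 mesenchyme, against 4.63 and 4.98 in H&H 31 mesenchyme. It had 3.80 and 5.17 RPKM in H&H 35 epithelium, against 28.8 and 27.9 in H&H 31 epithelium (difference 3.57, SE 0.18, adjusted p = 6.17e-06). WNT11, a ligand of the non-canonical branch, had 116 and 109 RPKM in H&H 35 mesenchyme, against 121 and 125 in H&H 31 mesenchyme. Epithelium held 40.4 and 42.1 RPKM at H&H 35, against 2.99 and 2.64 at H&H 31 (difference -3.60, SE 0.11, adjusted p = 2.2e-06), so it rose in epithelium to a level still below that of mesenchyme. In epithelium 21 of the 41 fell, where 15.9 percent of all genes did. Among these 4 ligands were singled out after their values were seen, as was RSPO2. WNT3 had 3.62 and 4.94 RPKM in H&H 35 epithelium, against 24.3 and 22.1 in H&H 31 epithelium, WNT7A had 12.98 and 18.9 RPKM in H&H 35 epithelium, against 58.6 and 72.2 in H&H 31 epithelium, and WNT9B had 3.38 and 4.55 RPKM in H&H 35 epithelium, against 35.7 and 37.3 in H&H 31 epithelium. These 3 genes lay at or under 0.406 RPKM in each mesenchyme library, where the scale leaves no room for a fall. WNT6 had 66.9 and 66.6 RPKM in H&H 35 epithelium, against 166 and 177 in H&H 31 epithelium. RSPO2, a secreted enhancer of WNT signals, had 11.4 and 12.9 RPKM in H&H 35 mesenchyme, against 2.78 and 3.57 in H&H 31 mesenchyme, and at most 0.162 RPKM in epithelium.

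Of 13 hedgehog pathway genes 1 had a higher and 3 a lower stage change in mesenchyme (7.69 and 23.1 percent, against 19.4 and 23 percent of all genes). The median difference was -0.05, and lay between -0.24 (without batch II of H&H 31 epithelium) and 0.10 (with equal sums) over the alternatives. SHH, the ligand, is known to be made in the epithelium of feather buds. It had 1.37 and 1.09 RPKM in H&H 35 mesenchyme, against 0 and 0.101 in H&H 31 mesenchyme. The levels in epithelium were 113 and 98.99 RPKM at H&H 35, against 5.89 and 7.05 at H&H 31 (difference -2.75, SE 0.19, adjusted p = 1.64e-05), with the larger change in epithelium, while the difference was not called with 0.1 in place of 1 as pseudocount (adjusted p = 0.171). The SHH values in mesenchyme are to be read beside the epithelial marker sum there, 1.43 and 1.47 percent of that in epithelium at H&H 35. The part of carried-over epithelium in them was not tested. The target gene PTCH1, which codes for a receptor of SHH and was singled out after its values were seen, rose in both layers with no called difference between them. PTCH1 changed by 2.34 in mesenchyme and 2.24 in epithelium (difference 0.10, 95 percent interval -0.32 to 0.51). HHIP, an antagonist and target of SHH, had 26.4 and 32.4 RPKM in H&H 35 mesenchyme, against 17.2 and 19.0 in H&H 31 mesenchyme. Epithelial libraries showed 3.07 and 2.93 RPKM at H&H 35, against 0.102 and 0.0830 at H&H 31 (difference -1.21, SE 0.17, adjusted p = 0.000712). GLI2, a transcription factor of the pathway, had 56.1 and 60.6 RPKM in H&H 35 mesenchyme, against 68.7 and 66.4 in H&H 31 mesenchyme, and 56.9 and 61.4 RPKM in H&H 35 epithelium, against 38.5 and 36.3 in H&H 31 epithelium (difference -0.86, SE 0.11, adjusted p = 0.000396), and its change of -0.21 in mesenchyme was called only with a batch term within each stage (adjusted p = 0.0216).

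Of 29 BMP and TGF-beta signals 8 had a higher and 9 a lower stage change in mesenchyme (27.6 and 31 percent, against 19.4 and 23 percent of all genes), and the 9 were 5 with the variance of each gene alone. BMP6 had 25.1 and 25.3 RPKM in H&H 35 mesenchyme, against 1.51 and 1.499 in H&H 31 mesenchyme. Its levels in epithelium were 13.4 and 13.98 RPKM at H&H 35, against 10.8 and 10.95 at H&H 31 (difference 3.09, SE 0.12, adjusted p = 3.08e-06). The epithelial rise of BMP6 was lost without batch I of H&H 31 epithelium (adjusted p = 0.122), batch II of H&H 31 epithelium (0.109), batch I of H&H 35 epithelium (0.0639) or batch II of H&H 35 epithelium (0.1). GDF10, another ligand of the family, had 14.8 and 10.1 RPKM in H&H 35 mesenchyme, against 0.670 and 0.709 in H&H 31 mesenchyme, and at most 0.292 RPKM in epithelium (difference 3.16, SE 0.24, adjusted p = 2.58e-05). Among 35 FGF, EDA, PDGF and IGF signals 13 were higher and 4 lower (37.1 and 11.4 percent). Of the 35, 4 genes rose in mesenchyme and fell in epithelium (11.4 percent, against 3.42 percent of all genes). With the variance of each gene alone 7 were higher and 2 lower. EDAR, the ectodysplasin receptor of placodes, had 10.5 and 11.9 RPKM in H&H 35 mesenchyme, against 0.836 and 1.04 in H&H 31 mesenchyme. It had 22.6 and 27.4 RPKM in H&H 35 epithelium, against 40.3 and 44.5 in H&H 31 epithelium (difference 3.39, SE 0.17, adjusted p = 6.41e-06), so that epithelium remained the higher layer. PDGFB, a growth factor, had 7.91 and 6.58 RPKM in H&H 35 mesenchyme, against 2.57 and 3.49 in H&H 31 mesenchyme. Its epithelial values were 3.62 and 3.62 RPKM at H&H 35, against 27.4 and 23.3 at H&H 31 (difference 3.55, SE 0.20, adjusted p = 8.67e-06). FGF20, a placode ligand, had 3.31 and 5.70 RPKM in H&H 35 epithelium, against 44.7 and 52.4 in H&H 31 epithelium, with at most 0.408 RPKM in mesenchyme (difference 3.25, SE 0.32, adjusted p = 9.21e-05).

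In the Notch pathway 8 of 15 genes (53.3 percent, against 19.4 percent of all genes) had a higher and 0 (against 23 percent) a lower stage change in mesenchyme in limma (9 and 1 at an unadjusted p under 0.05). Of the 15, 12 rose in mesenchyme, where 18.2 percent of all genes rose, and 6 in epithelium, where 18.6 percent did. Both counts lay above the share of all genes. JAG1, a ligand, had 36.2 and 41.3 RPKM in H&H 35 mesenchyme, against 2.12 and 2.83 in H&H 31 mesenchyme. It had 17.1 and 19.3 RPKM in H&H 35 epithelium, against 4.94 and 6.16 in H&H 31 epithelium, a rise in both layers that was larger in mesenchyme (difference 1.96, SE 0.20, adjusted p = 0.000107). DLL1, another ligand, had 14.3 and 19.0 RPKM in H&H 35 mesenchyme, against 1.46 and 2.45 in H&H 31 mesenchyme, and at most 0.0904 RPKM in epithelium. HEY1, a target of Notch, had 23.6 and 20.4 RPKM in H&H 35 mesenchyme, against 5.75 and 5.76 in H&H 31 mesenchyme. Epithelium held 29.8 and 32.7 RPKM at H&H 35, against 37.6 and 54.3 at H&H 31 (difference 2.28, SE 0.22, adjusted p = 8.02e-05). The epithelial fall of HEY1 was lost in 7 of 18 alternatives (adjusted p up to 0.186). With the variance of each gene alone the 8 genes were 4, and 7 rose in mesenchyme. Endothelial and smooth muscle markers, whose cells use Notch signals, rose in the same mesenchyme libraries, 10 of 13 and 6 of 7, and their part in these counts was not tested.

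Matrix genes outside the basement membrane leaned to the higher change in mesenchyme. Of 23 fibrillar collagens and their partners 13 had a higher and 3 a lower change (56.5 and 13 percent, against 19.4 and 23 percent of all genes), with medians of 0.21 in mesenchyme and -0.25 in epithelium. TNC (tenascin-C), a matrix protein of moving and condensing cells, had 41.8 and 46.7 RPKM in H&H 35 mesenchyme, against 2.70 and 2.73 in H&H 31 mesenchyme. Its epithelial levels were 9.88 and 12.3 RPKM at H&H 35, against 7.67 and 11.7 at H&H 31, a rise in mesenchyme alone (difference 3.41, SE 0.25, adjusted p = 2.13e-05). LUM (lumican), a proteoglycan of collagen fibrils, had 338 and 309 RPKM in H&H 35 mesenchyme, against 232 and 272 in H&H 31 mesenchyme, and 3.31 and 3.18 RPKM in H&H 35 epithelium, against 23.8 and 13.4 in H&H 31 epithelium, where only the epithelial fall was called (difference 2.52, SE 0.29, adjusted p = 0.000234). POSTN (periostin) went against the list. It had 372 and 266 RPKM in H&H 35 mesenchyme, against 189 and 207 in H&H 31 mesenchyme. The epithelial libraries had 49.5 and 66.0 RPKM at H&H 35, against 1.19 and 1.596 at H&H 31, rising in both layers and far more in epithelium (difference -3.94, SE 0.25, adjusted p = 1.31e-05), and its mesenchymal rise was lost without batch I of H&H 31 mesenchyme (adjusted p = 0.101), batch II of H&H 31 mesenchyme (0.0597) or batch I of H&H 35 mesenchyme (0.0994).

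Of 30 basement membrane and integrin genes 12 were higher and 9 lower (40 and 30 percent, against 19.4 and 23 percent of all genes). With the variance of each gene alone 8 were higher and 6 lower, and with equal sums 12 and 6. LAMA2, a laminin chain of mesenchymal cells, had 23.0 and 18.7 RPKM in H&H 35 mesenchyme, against 1.496 and 1.44 in H&H 31 mesenchyme, and at most 0.399 RPKM in epithelium (difference 3.18, SE 0.19, adjusted p = 1e-05). LAMA3, a laminin chain of epithelia, had 1.48 and 1.47 RPKM in H&H 35 mesenchyme, against 0.640 and 0.890 in H&H 31 mesenchyme. In epithelium the levels were 12.8 and 16.7 RPKM at H&H 35, against 44.6 and 41.5 at H&H 31 (difference 1.99, SE 0.20, adjusted p = 9.35e-05). Its small mesenchymal rise was lost without batch I of H&H 31 mesenchyme (adjusted p = 0.132), batch I of H&H 35 mesenchyme (0.063) or batch II of H&H 35 mesenchyme (0.0613).

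Adhesion and guidance genes were split as well. Of 29 cadherins, catenins and protocadherins 14 were higher and 3 lower in mesenchyme (48.3 and 10.3 percent, against 19.4 and 23 percent of all genes). With a minimum RPKM of 5 only 18 of them were tested, of which 8 were higher and 3 lower. CTNNA2, a catenin that links cadherins to actin, had 60.7 and 56.9 RPKM in H&H 35 mesenchyme, against 23.8 and 24.8 in H&H 31 mesenchyme. It had 10.9 and 11.3 RPKM in H&H 35 epithelium, against 31.5 and 30.3 in H&H 31 epithelium (difference 2.64, SE 0.11, adjusted p = 3.08e-06). CDH2 (N-cadherin) took the reverse course, with 19.5 and 22.3 RPKM in H&H 35 mesenchyme, against 29.4 and 30.4 in H&H 31 mesenchyme. The levels in epithelium were 11.2 and 14.5 RPKM at H&H 35, against 7.76 and 7.47 at H&H 31 (difference -1.17, SE 0.17, adjusted p = 0.000812), though its mesenchymal fall was lost without batch I of H&H 31 mesenchyme (adjusted p = 0.0528), batch II of H&H 31 mesenchyme (0.0724) or batch I of H&H 35 mesenchyme (0.0652). PCDH1, a protocadherin, had 14.6 and 12.8 RPKM in H&H 35 mesenchyme, against 4.54 and 4.84 in H&H 31 mesenchyme, and 3.84 and 4.34 RPKM in H&H 35 epithelium, against 5.04 and 5.12 in H&H 31 epithelium (difference 1.63, SE 0.16, adjusted p = 8.37e-05), where only mesenchyme was called. Of 44 guidance genes 16 were higher and 14 lower (36.4 and 31.8 percent). Of the 44, 6 were opposite with a rise in mesenchyme and 3 with a fall there (13.6 and 6.82 percent, against 3.42 and 5.58 percent of all genes). The 6 were 4 with the variance of each gene alone, and were fewer when any 1 epithelium library was left out. SEMA3A, a repulsive ligand for axons and vessels, had 22.5 and 29.2 RPKM in H&H 35 mesenchyme, against 3.58 and 4.08 in H&H 31 mesenchyme. Epithelium had 15.8 and 22.0 RPKM at H&H 35, against 39.8 and 35.6 at H&H 31 (difference 3.44, SE 0.24, adjusted p = 1.71e-05). SEMA3C had 26.5 and 26.0 RPKM in H&H 35 mesenchyme, against 4.12 and 5.38 in H&H 31 mesenchyme. Its levels in epithelium were 32.6 and 32.0 RPKM at H&H 35, against 48.3 and 41.5 at H&H 31 (difference 2.71, SE 0.16, adjusted p = 1.05e-05), and its epithelial fall was lost without batch I of H&H 31 epithelium (adjusted p = 0.118), batch I of H&H 35 epithelium (0.0568) or batch II of H&H 35 epithelium (0.0571). The 3 class 3 semaphorins SEMA3A, SEMA3C and SEMA3D were the guidance genes with the largest differences. Markers of neurons and Schwann cells summed lower at H&H 35 in both layers. They stood at 92.1 to 96.8 RPKM in H&H 35 mesenchyme, against 180 to 190 in H&H 31 mesenchyme. In epithelium they stood at 127 to 130 at H&H 35, against 238 to 263 at H&H 31. A relation to the semaphorins was not tested.

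Of the 21 HOX genes, which give cells their position along the body, 13 fell in epithelium, against 15.9 percent of all genes, and 10 had a higher and 1 a lower stage change in mesenchyme (47.6 and 4.76 percent, against 19.4 and 23 percent). The medians were -0.04 in mesenchyme and -0.76 in epithelium. HOXB3 had 17.8 and 18.8 RPKM in H&H 35 mesenchyme, against 20.8 and 25.4 in H&H 31 mesenchyme. Epithelium held 1.04 and 1.34 RPKM at H&H 35, against 5.53 and 6.74 at H&H 31 (difference 1.39, SE 0.19, adjusted p = 0.000567), and its change of -0.32 in mesenchyme was called with the batch term (adjusted p = 0.039). HOXA2 had 11.8 and 10.8 RPKM in H&H 35 mesenchyme, against 7.97 and 8.003 in H&H 31 mesenchyme, and 19.5 and 18.0 RPKM in H&H 35 epithelium, against 41.1 and 49.3 in H&H 31 epithelium (difference 1.67, SE 0.15, adjusted p = 5.56e-05), with the rise in mesenchyme lost without batch I of H&H 31 mesenchyme (adjusted p = 0.0507) or batch II of H&H 31 mesenchyme (0.0503).

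Of 45 SOX, FOX and other developmental factors 15 were higher and 10 lower (33.3 and 22.2 percent, against 19.4 and 23 percent of all genes). FOXD1, a forkhead factor of mesenchymal cells, had 117 and 112 RPKM in H&H 35 mesenchyme, against 5.98 and 8.49 in H&H 31 mesenchyme. In the epithelial layer it had 1.51 and 1.59 RPKM at H&H 35, against 1.41 and 1.21 at H&H 31 (difference 3.68, SE 0.20, adjusted p = 7.09e-06). TFAP2C, an AP-2 factor known from the epidermis, had 29.7 and 24.7 RPKM in H&H 35 mesenchyme, against 0.830 and 0.874 in H&H 31 mesenchyme. In epithelium, the higher layer at both stages, it had 74.4 and 78.3 RPKM at H&H 35, against 38.3 and 44.7 at H&H 31 (difference 3.06, SE 0.16, adjusted p = 6.41e-06). SOX18, a factor of endothelial cells and one of the endothelial markers, had 67.5 and 71.1 RPKM in H&H 35 mesenchyme, against 5.34 and 6.21 in H&H 31 mesenchyme, and at most 0.407 RPKM in epithelium. Of 32 keratin, desmosome and cornification genes 6 were higher and 11 lower (18.8 and 34.4 percent, against 19.4 and 23 percent of all genes), with a median difference of -0.25. With a pseudocount of 0.1 there were 8 of each and the median difference was 0.32, and with the variance of each gene alone 2 were higher. KRT5, a keratin of basal cells, had 4.36 and 3.62 RPKM in H&H 35 mesenchyme, against 0.295 and 0.413 in H&H 31 mesenchyme. The epithelial libraries had 342 and 284 RPKM at H&H 35, against 10.6 and 15.4 at H&H 31 (difference -2.63, SE 0.24, adjusted p = 6.23e-05). KRT15 changed by 1.18 in mesenchyme and 3.48 in epithelium, and KRT75 by 0.73 and 3.82, the first of which was lost without batch I of H&H 31 mesenchyme (adjusted p = 0.108), batch II of H&H 31 mesenchyme (0.13) or batch I of H&H 35 mesenchyme (0.139). The rises of keratins in mesenchyme libraries are to be read beside the epithelial marker sum there, which rose as well, as given above. KRT5 and KRT15 are themselves among those markers, so the sum is no independent measure for them. The part of carried-over epithelium in these rises was not tested.

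Calcium channel and gap junction genes, some of which the study took further, are part of the same comparison. Of 32 listed genes 15 had a higher and 4 a lower stage change in mesenchyme (46.9 and 12.5 percent, against 19.4 and 23 percent of all genes). The medians were 0.09 in mesenchyme and -0.18 in epithelium. Of the 32, 5 were opposite with a rise in mesenchyme and 2 with a fall there (15.6 and 6.25 percent, against 3.42 and 5.58 percent of all genes). With the variance of each gene alone there were 3 of each. The 5 were fewer when any 1 H&H 31 library was left out. GJA1 (Connexin-43) was opposite, with 698 and 737 RPKM in H&H 35 mesenchyme, against 492 and 549 in H&H 31 mesenchyme. In epithelium the levels were 214 and 180.4 RPKM at H&H 35, against 314 and 326 at H&H 31 (difference 1.16, SE 0.15, adjusted p = 0.000338), and its mesenchymal rise was lost without batch I of H&H 31 mesenchyme (adjusted p = 0.0654). CACNA1H, a T-type channel pore, was opposite as well, with 5.403 and 5.94 RPKM in H&H 35 mesenchyme, against 3.23 and 3.16 in H&H 31 mesenchyme, and 0.614 and 0.778 RPKM in H&H 35 epithelium, against 3.06 and 3.21 in H&H 31 epithelium (difference 1.96, SE 0.16, adjusted p = 4.04e-05). CACNG3, named as a channel subunit and known in mammals to escort glutamate receptors, had 2.41 and 1.64 RPKM in H&H 35 mesenchyme, against 2.29 and 1.78 in H&H 31 mesenchyme. In epithelium it had 1.15 and 1.79 RPKM at H&H 35, against 23.3 and 25.3 at H&H 31 (difference 3.36, SE 0.25, adjusted p = 2.26e-05). PANX2, a pannexin, had 12.1 and 10.9 RPKM in H&H 35 mesenchyme, against 13.3 and 15.4 in H&H 31 mesenchyme. Epithelial libraries showed 2.09 and 2.88 RPKM at H&H 35, against 14.4 and 17.1 at H&H 31 (difference 1.97, SE 0.20, adjusted p = 0.000107). CACNA1C rose in mesenchyme by 1.22 and lay at or under 0.0898 RPKM in each epithelium library, where the scale leaves no room for a fall. STIM1 rose in mesenchyme alone, by 0.77, with 12.9 and 14.4 RPKM in H&H 35 epithelium, against 11.9 and 14.4 in H&H 31 epithelium. ORAI1 fell in mesenchyme by 0.41 on the log2 scale, a call that was lost without batch I of H&H 31 mesenchyme (adjusted p = 0.146), batch II of H&H 31 mesenchyme (0.0817) or batch I of H&H 35 mesenchyme (0.133).

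One-layer genes were counted where a gene was called in 1 layer and in the difference, and was not called in the other. In mesenchyme alone 821 genes rose (7.36 percent) and 974 fell (8.73 percent). In epithelium alone 668 rose (5.99 percent) and 731 fell (6.55 percent). Because log2(RPKM + 1) gives little room below 2 RPKM, each count was split by the mean level in the other layer. It was at least 2 RPKM for 435 of the 821, 827 of the 974, 524 of the 668 and 464 of the 731, and in the rest the uncalled layer had little room to show a fall. A missed threshold in the other layer does not show that the gene stayed constant there. The genes ranked below therefore also had an absolute log2 change under 0.2 there, and a mean RPKM of at least 2 in each layer.

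Of the 7 genes with the largest rises in mesenchyme alone under these conditions, TNC is described above. FILIP1L had 19.6 and 18.4 RPKM in H&H 35 mesenchyme, against 1.28 and 1.42 in H&H 31 mesenchyme. Epithelium had 14.2 and 12.3 RPKM at H&H 35, against 11.2 and 12.9 at H&H 31 (difference 2.96, SE 0.16, adjusted p = 6.41e-06). EGFR, the receptor for epidermal growth factor, had 17.8 and 21.7 RPKM in H&H 35 mesenchyme, against 3.11 and 3.76 in H&H 31 mesenchyme. Its levels in epithelium were 40.8 and 50.0 RPKM at H&H 35, against 40.7 and 39.5 at H&H 31 (difference 2.05, SE 0.18, adjusted p = 5.94e-05), which brought mesenchyme closer to the epithelial level. EGFL6, a matrix protein with EGF repeats, had 90.04 and 71.8 RPKM in H&H 35 mesenchyme, against 13.5 and 14.7 in H&H 31 mesenchyme, and 188 and 225 RPKM in H&H 35 epithelium, against 211 and 251 in H&H 31 epithelium (difference 2.59, SE 0.19, adjusted p = 2.26e-05). DNAJC12, a co-chaperone, rose by 2.84, UCKL1, a kinase-like enzyme of pyrimidine salvage, by 2.26, and ADAMTS2, which trims procollagen, by 2.09 in mesenchyme. Their epithelial changes were -0.02, -0.12 and 0.06.

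Among the genes that fell in mesenchyme alone, CXADR, an adhesion protein of cell junctions, had 7.64 and 7.87 RPKM in H&H 35 mesenchyme, against 37.5 and 33.1 in H&H 31 mesenchyme. Its epithelial levels were 50.8 and 48.4 RPKM at H&H 35, against 58.0 and 53.1 at H&H 31 (difference -1.89, SE 0.12, adjusted p = 1.51e-05). PPM1D, a phosphatase that restrains the p53 response, had 24.2 and 25.4 RPKM in H&H 35 mesenchyme, against 77.2 and 77.8 in H&H 31 mesenchyme. In the epithelial layer it had 15.4 and 15.9 RPKM at H&H 35, against 16.4 and 17.4 at H&H 31 (difference -1.51, SE 0.11, adjusted p = 1.77e-05). HTRA1, a secreted protease, had 59.5 and 53.3 RPKM in H&H 35 mesenchyme, against 171 and 175 in H&H 31 mesenchyme. The epithelial libraries had 6.14 and 10.2 RPKM at H&H 35, against 8.24 and 6.08 at H&H 31 (difference -1.75, SE 0.28, adjusted p = 0.00125). Other mesenchymal changes were -2.42 for PPP2R2C (a subunit of protein phosphatase 2A), -2.17 for GLT25D2 (a collagen galactosyltransferase) and -1.88 for MPZL2 (an adhesion protein of epithelia). CXADR and MPZL2 had higher levels in epithelium than in mesenchyme at both stages.

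WNT11 led the genes that rose in epithelium alone under the same conditions. TGFB3, a ligand of the TGF-beta family, had 81.9 and 54.3 RPKM in H&H 35 mesenchyme, against 81.7 and 72.1 in H&H 31 mesenchyme. It had 140.2 and 101 RPKM in H&H 35 epithelium, against 28.0 and 24.2 in H&H 31 epithelium (difference -2.35, SE 0.28, adjusted p = 0.00028), and with a batch term within each stage its fall of 0.20 on the log2 scale in mesenchyme was called too (adjusted p = 0.031). TNFSF10 (TRAIL), a death ligand, had 14.7 and 13.97 RPKM in H&H 35 mesenchyme, against 13.6 and 17.4 in H&H 31 mesenchyme, and 19.8 and 19.7 RPKM in H&H 35 epithelium, against 1.56 and 1.96 in H&H 31 epithelium (difference -3.01, SE 0.18, adjusted p = 1e-05). ISM1, a secreted protein, had 33.1 and 27.0 RPKM in H&H 35 mesenchyme, against 27.9 and 33.9 in H&H 31 mesenchyme. The levels in epithelium were 27.4 and 28.5 RPKM at H&H 35, against 2.01 and 2.54 at H&H 31 (difference -3.19, SE 0.19, adjusted p = 1e-05). Epithelium reached or passed the level of mesenchyme at H&H 35 for these last genes. ST6GAL1, a sialyltransferase, changed by 2.97 in epithelium, SAMD11 by 2.37 and APBA2 by 2.09.

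Of the genes that fell in epithelium alone, CACNG3 stands above. HIC1, a transcriptional repressor, had 70.4 and 48.3 RPKM in H&H 35 mesenchyme, against 54.6 and 58.3 in H&H 31 mesenchyme. Epithelial libraries showed 12.6 and 12.5 RPKM at H&H 35, against 108 and 136 at H&H 31 (difference 3.22, SE 0.23, adjusted p = 2.05e-05). CA13, a carbonic anhydrase, had 9.89 and 8.45 RPKM in H&H 35 mesenchyme, against 5.89 and 10.4 in H&H 31 mesenchyme. Epithelium had 2.84 and 3.96 RPKM at H&H 35, against 39.8 and 42.4 at H&H 31 (difference 3.46, SE 0.31, adjusted p = 5.93e-05). DHRS3, which reduces retinal and so limits retinoic acid, had 11.4 and 11.3 RPKM in H&H 35 mesenchyme, against 10.3 and 12.1 in H&H 31 mesenchyme, and 5.22 and 4.16 RPKM in H&H 35 epithelium, against 27.6 and 24.5 in H&H 31 epithelium (difference 2.27, SE 0.17, adjusted p = 2.74e-05). C6ORF186 changed by -3.18, IRK1, named for an inward rectifier K+ channel, by -2.54, and ARPP21 by -2.16 in epithelium, with 0.16, -0.05 and -0.07 in mesenchyme. All 7 had a higher level in epithelium than in mesenchyme at H&H 31 or, for ARPP21, a like one.

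**Figure D5:**
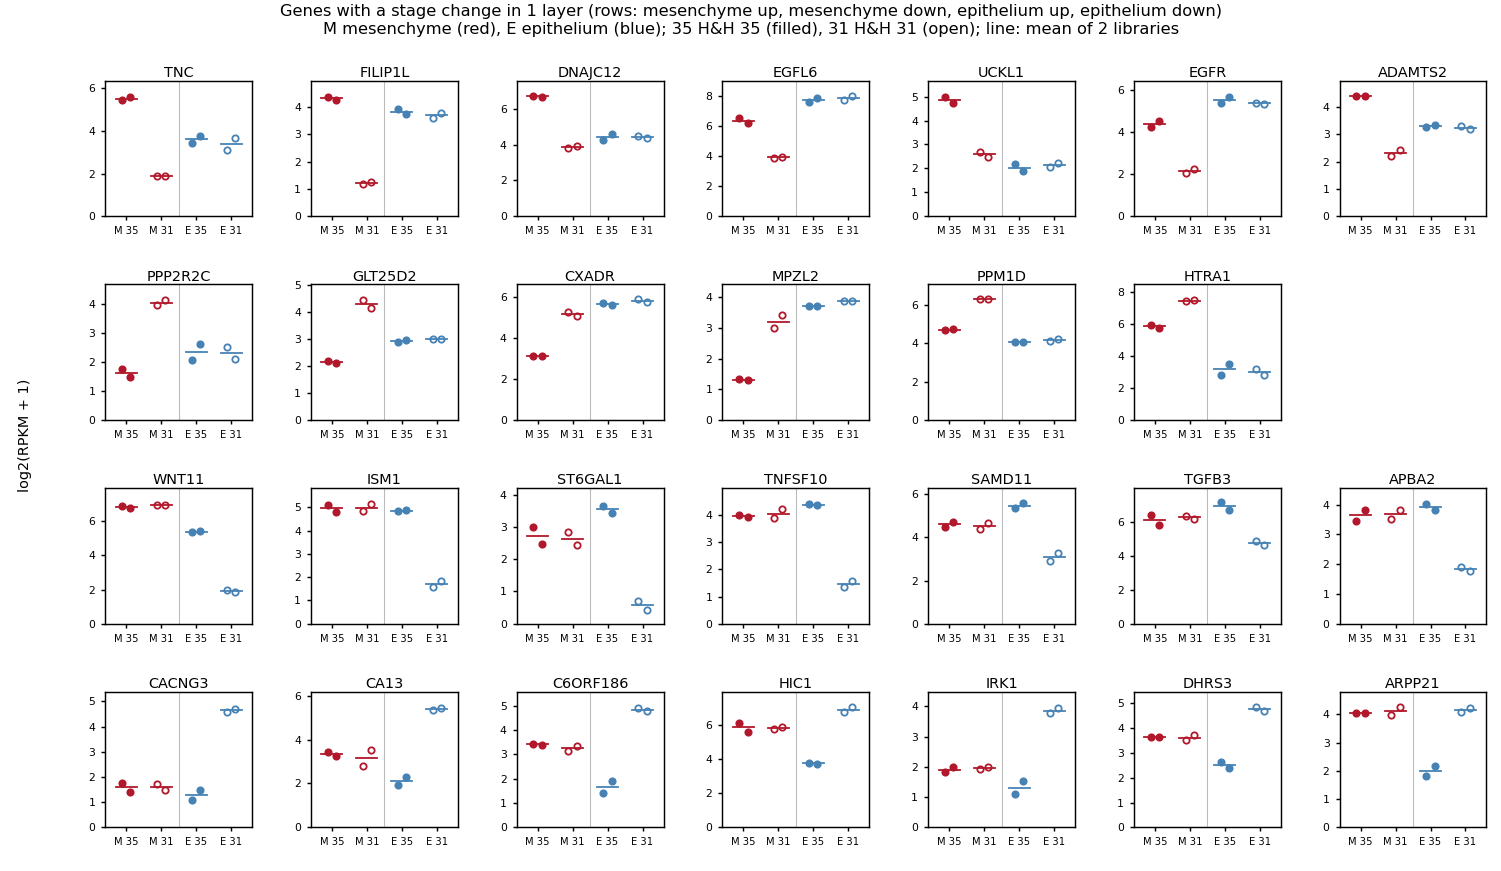
Level of the 27 one-layer genes as log2(RPKM + 1) in each library, with mesenchyme in red, epithelium in blue, H&H 35 filled and H&H 31 open, and a line at the mean of 2 libraries. The rows show genes that rose in mesenchyme, fell in mesenchyme, rose in epithelium and fell in epithelium, with an absolute log2 change under 0.2 in the other layer.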

How the data were processed

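RNA-Seq was performed on 8 libraries, batch I and batch II of each layer and stage. Layers were parted in calcium-magnesium-free saline, and libraries were made with the TruSeq kit and read single end. Per the labels and the study's methods, the authors trimmed and mapped reads to galGal4 in Partek Flow (the labels also name TopHat2), quantified genes in Partek Genomic Suite and deposited RPKM, scaled to gene length and mapped reads, for 14642 genes together with a count of alignments per library, which were deposited as whole counts and used as depth alone. Tool versions and the annotation are not given in the sources used here. RPKM gives no read counts per gene, so no count test was run. No sequence or coordinate is shown, as the gene table used here is of another genome build, and of the named columns 22 had been turned into dates.

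Genes whose RPKM was 1 or more in 2 or more libraries were fitted as log2(RPKM + 1) with limma 3.58.1 in R 4.3.3 (group means, trended empirical Bayes), with Benjamini-Hochberg adjustment over 11155 genes, and fold changes on this scale understate low genes. Sums and figures were made in Python 3.11.15 with pandas 2.3.3 and matplotlib 3.10.9. The fit was tested on simulated data. The labels give each library a batch, I or II, and do not say whether a batch was shared between layers or stages. The main fit had no batch term and so did not pair the layers. Deviations from the group mean correlated across genes by 0.194 between layers at H&H 31 and 0.316 at H&H 35, by -0.152 and 0.033 between stages within epithelium and mesenchyme, and by -0.184 and 0.04 across both, so batch was tried as a term. The libraries are called biological replicates, without the number of embryos. P-values measure the spread between them.

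The members, the 19 gene lists, the 10 marker lists (epithelium, mesenchyme, melanocytes, red cells, leukocytes, endothelium, smooth muscle, striated muscle, neurons, cartilage) and the rules were chosen with earlier results of these data known. Named were the 12 opposite genes per direction and the 7 one-layer genes per layer and direction with the largest change (a symbol, stages that do not overlap, mean RPKM of at least 2 in each layer, and for one-layer genes an absolute change under 0.2 in the other layer), up to 3 members per list with the largest called difference, and 5 channel genes of the study. Some genes met by this rule are not reported here. Other genes are said to be chosen after their values were seen. Alternatives were pseudocounts of 0.1 and 0.5, no filter, a minimum RPKM of 5, equal sums, median-ratio scaling, quantile normalization, a batch term, a batch term within each stage, the variance of each gene alone, and each library left out. Counts of called list members under the alternatives other than the scalings, and the genes of the last observation, were added after seeing the data.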

Additional observations from a re-analysis of the deposited data

Results flagged for a closer look

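The effect of stage differed between the layers by the limma interaction for 2166 genes with the higher change in mesenchyme and 2564 with the lower. Among the genes that rose in mesenchyme and fell in epithelium, the difference of the stage changes was 5.04 for F10, 5.004 for ADAMTS17, 4.96 for CPZ, 4.61 for NDNF and 4.25 for SEMA3D. It was 3.94 for FST, 3.85 for THSD4, 3.64 for HAPLN1, 3.63 for SFRP2, 3.62 for COL18A1 and 3.59 for NID1. Among those that fell in mesenchyme and rose in epithelium, it was -4.60 for PODN, -4.07 for NECAB1, -3.93 for LDHA, -3.89 for CPA6, -3.63 for SHROOM1 and -3.43 for HS3ST6. It was -3.38 for DRAXIN, -3.30 for PDZRN4, -3.14 for HMGA2, -3.00 for CORIN, -2.78 for NPNT and -2.70 for FAM110A. Each group held 2 libraries, too few to look for a library far from its group.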

How the results depend on the processing

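Of 103 named genes with a called difference between the layers, 95 kept the call in all 18 alternatives, and 0 differences or layer changes called in limma turned round. The 8 that lost it in at least 1 included CYR61, FOS, IER5, NDUFB6, ORAI1, RPSA and SHH. Most of the 103 were named for the size of their difference or change, so these counts say little about all 4730 called differences. Over all genes the called differences numbered 3359 with the variance of each gene alone. Of the named calls in mesenchyme 63 of 79 were kept, and of those in epithelium 64 of 76. The settings given above for the lost call of a single gene are not always all that ended it. Scaling to equal sums moved the median difference of all genes from -0.05 by 0.14 to 0.09 and gave 2682 higher and 1840 lower differences in mesenchyme (59.3 percent higher, against 45.8 percent), while median-ratio scaling gave 2499 and 2145 and quantile normalization 2160 and 2289. With equal sums 433 genes rose in epithelium alone. With the variance of each gene alone the opposite genes were 252 (up in mesenchyme) and 396 (down). The replicate block (batch as a term) gave 2139 higher and 2525 lower differences, 386 and 619 opposite genes, and 804, 946, 658 and 731 one-layer genes (up and down in mesenchyme, up and down in epithelium). A block within each stage gave 2513 and 3073, 505 and 899, and 904, 1078, 752 and 809. Of the named calls, the block ended that of IER5 in epithelium (adjusted p = 0.059) beside those given above. Within stage it added that of IER5 in mesenchyme (0.0109) and NDUFB6 in epithelium (0.0127), and it changed no other named call than those given above. Leaving out 1 library gave 1605 to 2137 higher and 1910 to 2499 lower differences. The opposite genes up in mesenchyme were 228 (without H&H 31 mesenchyme I; 249 without II) to 391, and those down in mesenchyme 379 (without H&H 31 epithelium I; 394 without H&H 31 mesenchyme II) to 695. One-layer genes were 571 to 811 up and 547 (without H&H 31 mesenchyme II; 649 without I) to 1009 down in mesenchyme, and 449 to 762 up and 469 (without H&H 35 epithelium I) to 775 down in epithelium. Each fit without a library left 1 library in a group, so a call could be lost at an unchanged value. The epithelial change of LDHB was 0.32 with all libraries and without either H&H 31 mesenchyme library, where its call was lost. The cause of the shifts in these counts was not tested. With 2 libraries a group and no read counts, small changes and genes near 1 RPKM cannot be resolved, and a missed call in 1 layer is no evidence of a constant level.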

Other observations

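Enzymes of serine, one-carbon and amino acid supply, chosen after their values were seen, also differed between the layers. Of 10 such genes 8 had a lower stage change in mesenchyme, where 23 percent of all genes did, and as the genes were picked this count supports nothing. The cystine transporter SLC7A11, looked up with them and not counted, took the reverse course, with a rise in mesenchyme and a fall in epithelium (difference 2.12, SE 0.19, adjusted p = 5.22e-05). PSAT1, the aminotransferase of serine synthesis, had 6.11 and 8.24 RPKM in H&H 35 mesenchyme, against 33.4 and 33.1 in H&H 31 mesenchyme. In epithelium it had 12.4 and 13.6 RPKM at H&H 35, against 8.57 and 8.09 at H&H 31 (difference -2.67, SE 0.18, adjusted p = 1.59e-05). MTHFD2, a mitochondrial folate enzyme of embryonic and dividing cells, had 9.23 and 7.98 RPKM in H&H 35 mesenchyme, against 15.5 and 16.02 in H&H 31 mesenchyme. Its epithelial values were 28.1 and 27.3 RPKM at H&H 35, against 9.34 and 10.4 at H&H 31 (difference -2.21, SE 0.14, adjusted p = 1.19e-05). ASNS, which makes asparagine, had 9.48 and 9.41 RPKM in H&H 35 mesenchyme, against 12.6 and 13.9 in H&H 31 mesenchyme. Epithelium held 26.2 and 28.7 RPKM at H&H 35, against 9.14 and 7.45 at H&H 31 (difference -2.06, SE 0.16, adjusted p = 2.67e-05). PHGDH, the first enzyme of the serine branch, rose in both layers, by 1.59 in mesenchyme and 1.38 in epithelium, with no called difference (adjusted p = 0.573).

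Regulators of entry into the cell cycle, also chosen after their values were seen, moved less uniformly. CCND1 (cyclin D1) had 15.7 and 16.6 RPKM in H&H 35 mesenchyme, against 18.0 and 20.9 in H&H 31 mesenchyme. Its epithelial levels were 41.3 and 36.6 RPKM at H&H 35, against 18.4 and 20.7 at H&H 31 (difference -1.21, SE 0.15, adjusted p = 0.000306), with only the epithelial rise called. CCND3 rose in epithelium by 0.96, while CCND2 changed by -0.45 there. CDKN1B (p27), an inhibitor of cyclin-dependent kinases, rose in both layers, by 1.008 in mesenchyme and 0.48 in epithelium (difference 0.53, SE 0.19, adjusted p = 0.0477). FBLN1 (fibulin-1), a matrix protein, was another opposite gene, with 109 and 106 RPKM in H&H 35 mesenchyme, against 52.5 and 54.2 in H&H 31 mesenchyme. In the epithelial layer it had 13.3 and 14.7 RPKM at H&H 35, against 42.5 and 36.1 at H&H 31 (difference 2.43, SE 0.13, adjusted p = 6.41e-06).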
